A study of Homo sapiens with 4 samples.

Results

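Heat shock chaperones were followed in rituximab-resistant sublines of 2 human B-cell lymphoma lines. The 10 genes HSPA6, DNAJB1, HSPA1A, HSPA1B, HSPB1, HSPH1, BAG3, HSP90AA1, HSPA8 and HSPD1 were taken, out of 21357 gene symbols that the array's annotation names. Every probe set annotated to any of them was used, which gave 25 of 54613 probe sets. HSPA6 and DNAJB1 had been chosen by their measured signals, which against the parental line were lower in Jeko-1/R but higher in Raji/R. Their ratios are therefore a description and support nothing by themselves. HSPA1A and HSPA1B had no probe set of their own, so 3 shared probe sets were read for both genes together and the 2 genes cannot be told apart. The 4 HSPA8 probe sets are also annotated to 2 small nucleolar RNA genes, SNORD14C and SNORD14D. The 10 genes thus gave 9 separate readouts.

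The 4 groups were Jeko-1/R, Jeko-1, Raji/R and Raji, with 1 array each. Jeko-1 derives from mantle cell lymphoma, Raji from Burkitt lymphoma. Jeko-1/R and Raji/R are the sublines made resistant to rituximab, an antibody against CD20, and their source is labelled as cells treated with the antibody, whereas the parental cells are labelled as untreated. Dose, time and the number of clones behind a subline are not given in the sources used here. Signals are MAS5 values, an Affymetrix summary scaled by 1 factor per array, deposited on the log2 scale and printed here as linear signals. Signals under 77.5, the median of all values, were raised to that floor before a ratio was taken. With no replicate array there was no test and no p-value. A 2-fold ratio was the size counted as changed, and the SD of log2 ratios between probe sets of the same gene, 0.25 for Jeko-1/R and 0.49 for Raji/R, stood in for error. That SD covers differences between probe sets and not between cultures. In such bulk RNA, fewer cells with a transcript and less transcript per cell cannot be told apart.

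Heat shock proteins are chaperones, which bind unfolded proteins and keep them from clumping. Under heat or other damage to proteins, the transcription factor HSF1 forms trimers, binds heat shock elements in promoters and switches on the inducible chaperones. HSP70 proteins (HSPA6, HSPA1A, HSPA1B and HSPA8) do the folding work with ATP, HSP40 proteins such as DNAJB1 hand them clients, and HSPH1 and BAG3 help them release nucleotide. HSPA6 is nearly silent in unstressed cells, while HSPA8 and the mitochondrial chaperonin HSPD1 are made all the time.

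The promoters are shown because heat shock elements are the route by which the inducible members are known to be switched on, and because the same letters stand before members whose signals differed little. RefSeq windows of 250 bases before to 50 bases after the start (GRCh38.p14) were found for all 10 genes, 14 windows in all. An element is built of inverted GAA units. A pair of units was searched as GAANNTTC or TTCNNGAA, and a triple as GAANNTTC followed by NNGAA or TTCNNGAA followed by NNTTC, so both strands were covered and every triple also holds overlapping pairs. Of 35116 promoter windows, 13.5% held a pair and 0.490% held a triple. Among the members, 9 of the 14 windows held a pair and 4 held a triple. In the sequences below, written 5′ to 3′ on the gene's own strand, capitals mark the pairs and triples.
HSPA6, chr1:161524290-161524589, plus strand: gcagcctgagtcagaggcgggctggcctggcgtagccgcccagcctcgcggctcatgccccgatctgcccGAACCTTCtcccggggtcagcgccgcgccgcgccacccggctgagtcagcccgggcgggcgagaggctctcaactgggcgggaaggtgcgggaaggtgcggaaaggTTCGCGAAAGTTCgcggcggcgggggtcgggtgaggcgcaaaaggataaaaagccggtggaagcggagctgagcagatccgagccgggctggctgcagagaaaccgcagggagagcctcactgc
DNAJB1, chr19:14518348-14518647, minus strand: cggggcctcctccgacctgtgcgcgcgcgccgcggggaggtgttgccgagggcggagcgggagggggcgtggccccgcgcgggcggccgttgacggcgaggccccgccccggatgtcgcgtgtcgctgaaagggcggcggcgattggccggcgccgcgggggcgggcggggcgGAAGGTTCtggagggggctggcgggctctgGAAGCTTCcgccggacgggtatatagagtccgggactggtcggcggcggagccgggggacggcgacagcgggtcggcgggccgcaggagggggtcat
HSPA1A, chr6:31815293-31815592, plus strand: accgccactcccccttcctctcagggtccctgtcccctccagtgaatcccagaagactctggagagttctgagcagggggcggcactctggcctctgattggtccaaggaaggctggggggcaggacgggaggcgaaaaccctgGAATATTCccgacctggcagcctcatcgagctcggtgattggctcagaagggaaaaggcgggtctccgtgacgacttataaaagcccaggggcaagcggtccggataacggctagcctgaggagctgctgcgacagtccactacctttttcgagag
HSPA8, chr11:123062087-123062386, minus strand: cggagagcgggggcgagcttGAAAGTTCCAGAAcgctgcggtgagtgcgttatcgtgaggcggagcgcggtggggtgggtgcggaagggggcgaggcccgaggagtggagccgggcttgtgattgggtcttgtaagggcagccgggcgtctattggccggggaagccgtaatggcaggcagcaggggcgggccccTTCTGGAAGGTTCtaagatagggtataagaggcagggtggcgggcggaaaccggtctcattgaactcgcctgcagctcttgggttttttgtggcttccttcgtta
HSPD1, chr2:197499791-197500090, minus strand: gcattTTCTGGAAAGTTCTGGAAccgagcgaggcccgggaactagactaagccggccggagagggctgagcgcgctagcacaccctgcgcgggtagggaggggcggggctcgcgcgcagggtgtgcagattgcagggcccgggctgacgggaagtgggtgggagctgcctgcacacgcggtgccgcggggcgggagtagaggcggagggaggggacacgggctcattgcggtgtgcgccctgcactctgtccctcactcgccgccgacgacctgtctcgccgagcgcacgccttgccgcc

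The HSPA6 window held 3 pairs and 1 triple, with the pair nearest the start beginning 69 bases before it. The DNAJB1 window printed held 2 pairs and no triple, with the nearer pair 47 bases before the start. DNAJB1 has 3 annotated starts, and of the windows not shown 1 held a single pair and the other none. HSPA1A and HSPA1B each held 1 pair, 106 and 105 bases before the start. The HSPA8 window held 4 pairs and 2 triples, more than that of HSPA6. The HSPD1 window shown held 3 pairs and 2 triples, and its other window held none. HSPB1 held 1 pair, 1 of the 2 HSP90AA1 windows held 3 pairs and 1 triple, and HSPH1 and BAG3 held neither motif in this window. In these windows the letters stood before members that differed strongly between subline and parent and before members that did not.

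HSPA6 encodes the strictly inducible HSP70B′. Its brighter probe set read 127 in Jeko-1/R and 467 in Jeko-1, and 1777 in Raji/R and 160 in Raji. Its dimmer probe set read 41.8 in Jeko-1/R and 235 in Jeko-1, and 724 in Raji/R and 94.2 in Raji. The Raji/R array was the highest on both probe sets and the Jeko-1/R array the lowest. The log2 ratio of the brighter probe set was -1.88 for Jeko-1/R and 3.47 for Raji/R, a signal 3.68-fold lower and 11.1-fold higher than in the parent. In Jeko-1/R the dimmer HSPA6 probe set lay under the floor, at least 3.04-fold lower than in Jeko-1, and its log2 ratio in Raji/R was 2.94. Of the other 14641 genes measured in the Raji pair, 0 had a higher ratio than HSPA6. The near-identical pseudogene HSPA7 is named by 0 probe sets of the annotation, so whether it adds to the HSPA6 signal was not tested.

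DNAJB1 encodes the HSP40 partner that delivers clients to inducible HSP70. Its brighter probe set read 505 in Jeko-1/R and 1198 in Jeko-1, and 7311 in Raji/R and 1865 in Raji. The other read 309 in Jeko-1/R and 2005 in Jeko-1, and 4416 in Raji/R and 621 in Raji. Both put Raji/R highest and Jeko-1/R lowest, but they disagreed on which parent was higher. The log2 ratio was -1.25 for Jeko-1/R and 1.97 for Raji/R on the brighter probe set, and -2.70 and 2.83 on the other. Both probe sets gave the same direction while their ratios in Jeko-1/R lay 1.45 apart, well over the usual SD of 0.25 between probe sets.

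HSPA1A and HSPA1B encode the same major inducible HSP70, and their shared probe sets showed the same opposite pattern. The brightest read 1198 in Jeko-1/R and 9105 in Jeko-1, and 18257 in Raji/R and 2442 in Raji. The second, which is annotated to HSPA1L as well, read 538 in Jeko-1/R and 3747 in Jeko-1, and 7226 in Raji/R and 807 in Raji. The dimmest read 78.3 in Jeko-1/R, just over the floor, and 1055 in Jeko-1, and 416 in Raji/R and 122 in Raji. The brightest was thus 7.60-fold lower than the parent in Jeko-1/R, but 7.48-fold higher in Raji/R, with log2 ratios of -2.93 and 2.90. The second gave -2.80 and 3.16, and the dimmest -3.75 and 1.77. No gene with a probe set of its own among the 11588 measured in the Jeko-1 pair had a ratio below that of the brightest HSPA1A/HSPA1B probe set. In the Raji pair HSPA6 was the only gene above it. HSPA1L, a testis-enriched relative, read between 5.21 and 69.2 on its own probe set, under the floor on all 4 arrays.

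**Figure D1:**
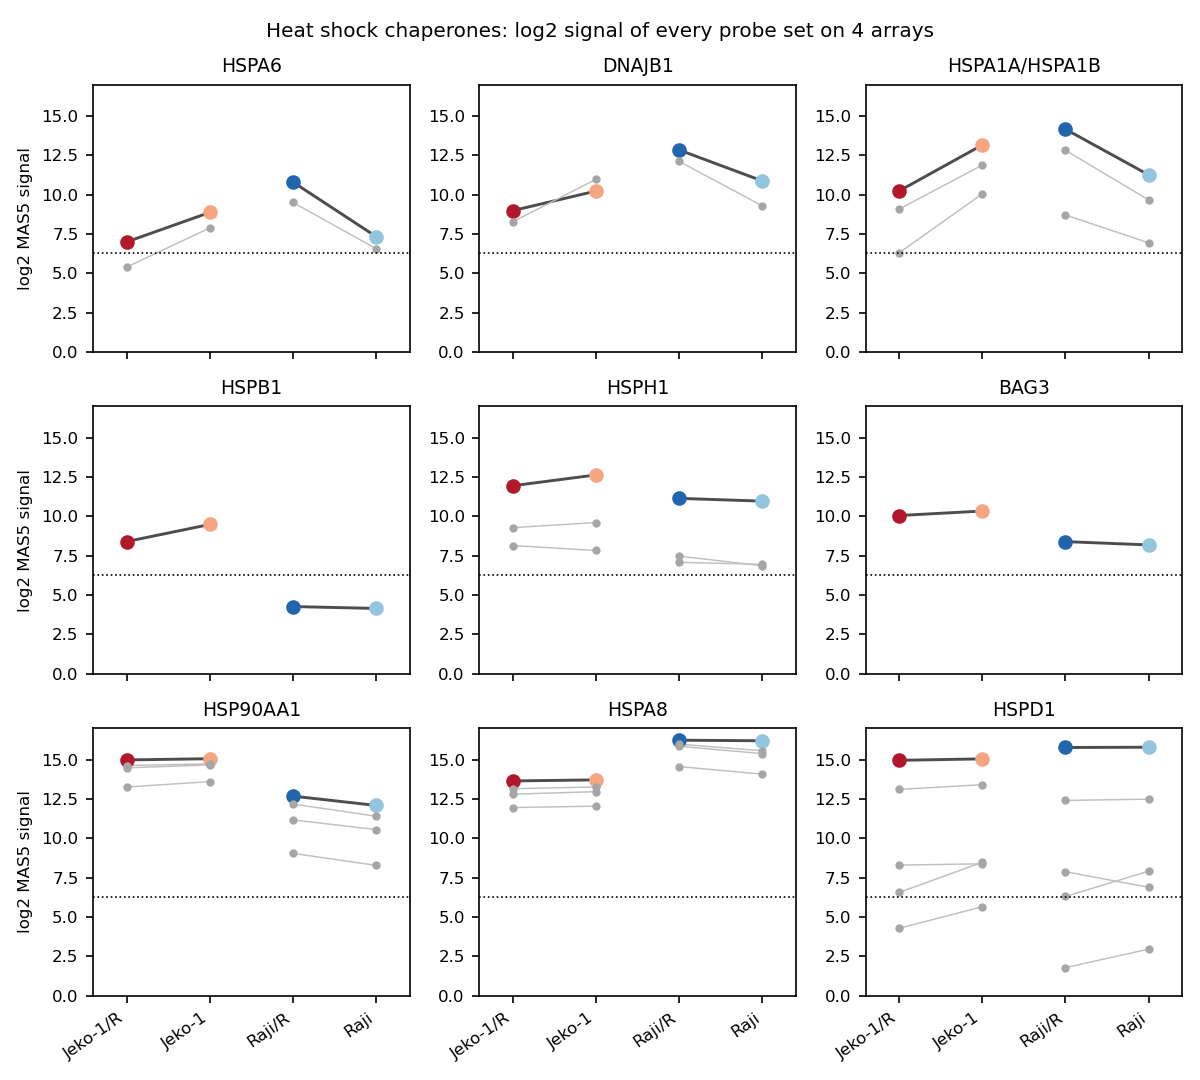
Log2 MAS5 signal (vertical axis) of the 25 probe sets of the heat shock chaperones on the 4 arrays, with 1 panel per readout. Large coloured points are the brightest probe set, small grey points the others, lines join subline and parent, and the dotted line is the floor at a log2 of 6.28; HSPA6, DNAJB1 and HSPA1A/HSPA1B slope in opposite directions in the 2 lines, and HSPB1 lies under the floor in Raji/R and Raji.

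HSPB1, the small heat shock protein HSP27, was measured in the Jeko-1 lines only. Its single probe set read 339 in Jeko-1/R and 721 in Jeko-1, and 19.3 in Raji/R and 17.8 in Raji. The log2 ratio in Jeko-1/R was -1.09, just past 2-fold, and no ratio was taken in the Raji pair because both signals were under the floor. HSPB1 therefore did not show the opposite pattern of HSPA6, since it was not detected above the floor in Raji/R.

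HSPH1 encodes HSP110, a nucleotide exchange factor of HSP70. Its brightest probe set read 3969 in Jeko-1/R and 6395 in Jeko-1, and 2276 in Raji/R and 2014 in Raji. The log2 ratio was -0.69 in Jeko-1/R, the value nearest to 2-fold among brightest probe sets that missed it, and 0.18 in Raji/R. The other probe sets gave -0.32 and 0.32 in Jeko-1/R and 0.62 and 0.13 in Raji/R, so their signs differed in Jeko-1/R. BAG3, a cochaperone that couples HSP70 to selective autophagy, read 1069 in Jeko-1/R and 1301 in Jeko-1, and 338 in Raji/R and 292 in Raji. Its log2 ratios of -0.28 and 0.21 were close to, or under, the spread between probe sets.

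HSP90AA1 encodes the inducible HSP90 isoform, which is abundant in growing cells too. Its brightest probe set read 32477 in Jeko-1/R and 34277 in Jeko-1, and 6592 in Raji/R and 4369 in Raji. Over its 4 probe sets the log2 ratio ran from -0.34 to -0.08 in Jeko-1/R and from 0.59 to 0.77 in Raji/R. All 4 signs were negative in Jeko-1/R and positive in Raji/R, but no probe set of HSP90AA1 reached 2-fold, and with quantile normalization or the lowess adjustment the brightest gave 0.01 and 0.02 in Jeko-1/R. In Raji/R, with arrays centred on their medians, its brightest probe set gave 0.18, and those of HSPH1 and BAG3 turned to -0.23 and -0.20.

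The brightest probe sets of the constitutive members had ratios near 0. HSPA8, the housekeeping HSC70, read 12867 in Jeko-1/R and 13489 in Jeko-1, and 77448 in Raji/R and 75603 in Raji on its brightest probe set. Its log2 ratios were -0.07 and 0.03, and its other probe sets gave -0.16 to -0.09 in Jeko-1/R and 0.42 to 0.48 in Raji/R. HSPD1, the mitochondrial HSP60, read 31897 in Jeko-1/R and 34058 in Jeko-1, and 56191 in Raji/R and 56869 in Raji, with log2 ratios of -0.09 and -0.02. With quantile normalization the Raji/R ratios of HSPA8 and HSPD1 were -0.44 and -0.36, with arrays centred on their medians they were -0.38 and -0.43, and with the lowess adjustment -0.29 for both, so no direction is given for them there. The second HSPD1 probe set gave -0.30 and -0.08. Its 3 dim probe sets did not follow the bright ones. One of them read 94.3 in Jeko-1/R and 356 in Jeko-1, a log2 ratio of -1.92, and was under the floor in both Raji lines. Another read 79.1 in Raji/R and 242 in Raji, a log2 ratio of -1.61, and the last read 236 in Raji/R and 118 in Raji, a log2 ratio of 0.99.

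Counted by probe set, 9 of 24 measured in Jeko-1/R were lower by 2-fold or more, against 0.537% of all probe sets measured in that pair, and 0 were 2-fold higher, against 0.545%. In Raji/R 7 of 23 measured were at least 2-fold higher, against 7.73% of all, and 1 was 2-fold lower, against 2.88%. Counted by readout, 4 of 9 were lower in Jeko-1/R (HSPA6, DNAJB1, HSPA1A/HSPA1B and HSPB1), against 0.595% of 11588 genes, and 3 of 8 were higher in Raji/R (HSPA6, DNAJB1 and HSPA1A/HSPA1B), against 7.01% of 14642 genes. No readout was 2-fold higher in Jeko-1/R, where 0.380% of genes were, or lower in Raji/R, where 2.64% were. These shares are given beside the counts only, because these contrasts chose the leading members. The median log2 ratio of the 7 inducible readouts in Jeko-1/R was -1.09, and that of the 6 measured in Raji/R was 1.28. Without HSPA6 and DNAJB1, which were chosen by these ratios, the medians were -0.69 over 5 readouts and 0.40 over 4. The -0.69 is the brightest HSPH1 probe set, whose other probe sets gave -0.32 and 0.32. The 0.40 lies between BAG3 (0.21) and HSP90AA1 (0.59), which gave -0.20 and 0.18 with arrays centred on their medians. The size of the first median thus rests on the HSPH1 probe set, and the second changes with the scaling. No shift of the remaining inducible readouts as a set is therefore read from these medians. Of these readouts only HSPA1A/HSPA1B stayed past 2-fold in both pairs, under all 9 alternatives. The 2 constitutive readouts had medians of -0.08 and 0.01, and all genes had medians of 0.001 and 0.08. The constitutive value in Raji/R rests on the brightest HSPA8 probe set (0.03). The other HSPA8 probe sets gave 0.42 to 0.48 there, no lower than the 0.40 of the inducible readouts that were left. On the log2 scale, where 2-fold is 1, the readouts nearest to that limit on its 2 sides were HSPB1 (-1.09) and HSPH1 (-0.69) in Jeko-1/R. In Raji/R they were DNAJB1 (1.97), which lay well past it, and HSP90AA1 (0.59). Of 10655 genes with their own probe sets measured in both pairs, 0.0939% combined a 2-fold lower signal in Jeko-1/R with a 2-fold higher one in Raji/R, among them HSPA6 and DNAJB1. The opposite combination was held by 0.00939% of genes and 0.0128% of probe sets, and by 0 members. Among all probe sets the share was 0.115%, or 27 of 23475, and the 7 probe sets of HSPA6, DNAJB1 and HSPA1A/HSPA1B were all among those 27.

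**Figure D2:**
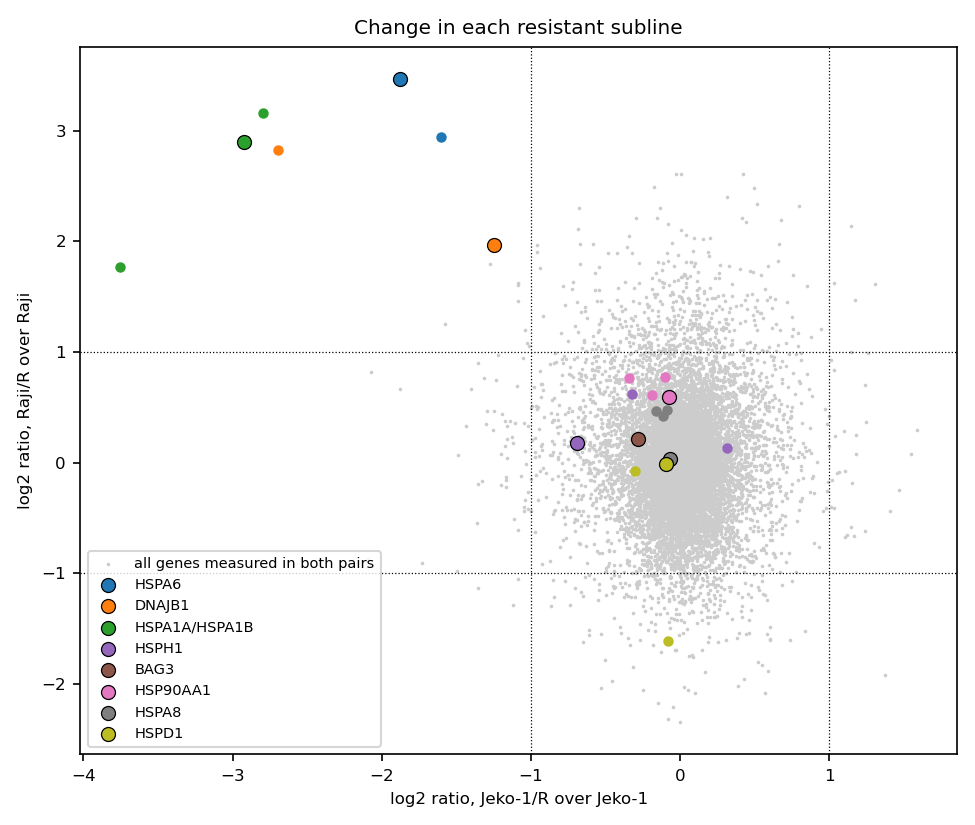
Log2 ratio in Jeko-1/R over Jeko-1 (horizontal axis) against log2 ratio in Raji/R over Raji (vertical axis). Grey points are the 10655 genes measured in both pairs, and dotted lines mark 2-fold. Outlined points are the brightest probe set of a member, smaller points of the same colour its other probe sets. The 7 probe sets of HSPA6, DNAJB1 and HSPA1A/HSPA1B lie in the upper left corner. Other genes lie there too, with RGS1 (-1.27 and 1.79) at a distance of 0.18 from the brightest DNAJB1 probe set. HSPA6 and DNAJB1 were chosen for this position.

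The members were also set against genes of like signal. In the Raji pair 55.6% of probe sets reached the floor in Raji/R, against 48.3% in Raji, and 72.7% of the 2-fold changed genes were higher. With arrays centred on their medians only 22.1% of them were higher. HSPA1A/HSPA1B and DNAJB1 in Raji/R had mean log2 signals above 11, a range in which 13 of 3095 genes (0.42%) were at least 2-fold higher in Raji/R. DNAJB1 was chosen for its rise and is itself among the 13, so this share only describes the range. HSPA6, at a log2 of 10.8 in Raji/R and 7.33 in Raji, lay under that range. With a lowess adjustment for signal the member counts stayed at 4 for lower signals in Jeko-1/R and at 3 for higher signals in Raji/R. Both counts include the chosen HSPA6 and DNAJB1, and whether signal level plays a part was not tested.

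**Figure D3:**
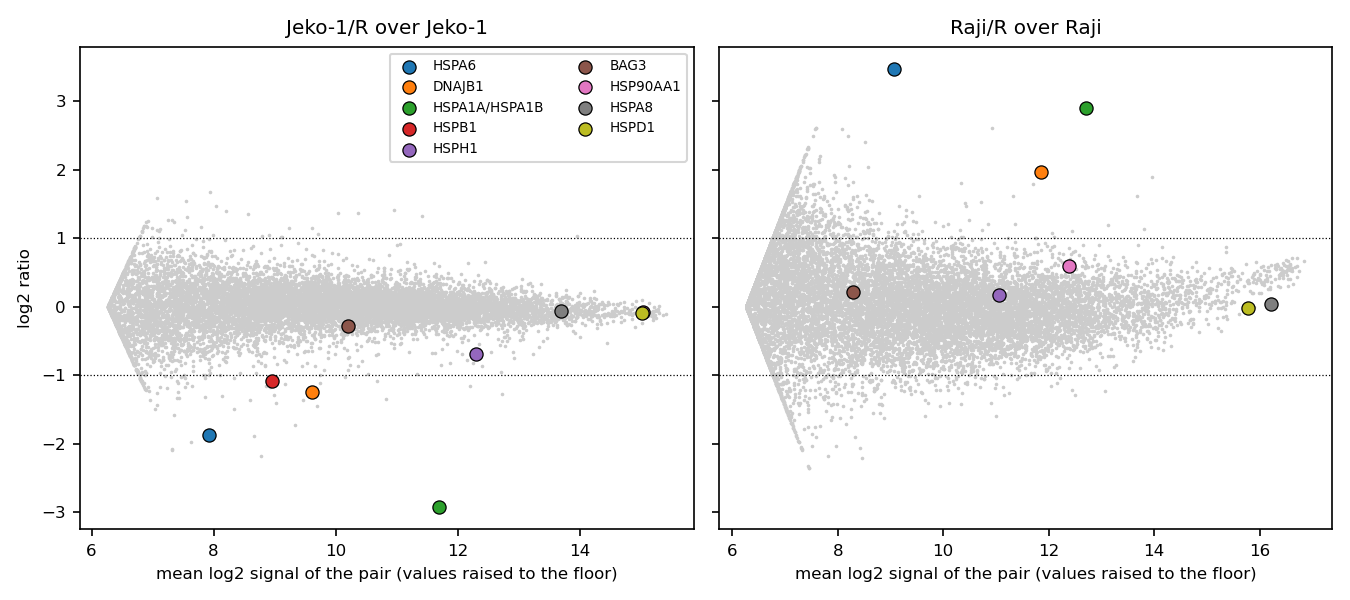
Log2 ratio (vertical axis) against the mean log2 signal of the pair after raising values to the floor (horizontal axis), for Jeko-1/R over Jeko-1 and Raji/R over Raji. Grey points are all genes measured in the pair, coloured points the brightest probe sets of the members, and dotted lines mark 2-fold. In Raji/R HSPA6 (3.47) and HSPA1A/HSPA1B (2.90) stand above the other genes at their signal level. DNAJB1 (1.97) lies high, with 39 of 14642 genes of any signal above it.

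The parental lines themselves differed in these chaperones. Of 9 readouts, 6 were at least 2-fold higher in Jeko-1 than in Raji, against 22.4% of 13538 genes, and 1 was at least 2-fold lower, against 26.4%. By probe set, 15 of 25 were higher, against 25.4% of all, and 4 were lower, against 20.4%. HSP90AA1 was 7.85-fold higher in Jeko-1 on its brightest probe set, with log2 ratios of 2.97 to 5.33 over its 4 probe sets. HSPB1 was at least 9.30-fold higher in Jeko-1, BAG3 4.45-fold, HSPA1A/HSPA1B 3.73-fold, HSPH1 3.18-fold and HSPA6 2.91-fold. With the floor at the 75th percentile HSPA6 (log2 ratio 0.35) and HSPB1 (0.97) no longer reached 2-fold. HSPA8 was the lower gene, with log2 ratios of -2.49 to -2.03 over its 4 probe sets. DNAJB1 (-0.64 and 1.69) and the bright probe sets of HSPD1 (-0.74 and 0.92) disagreed in sign. Read across the 4 arrays, the brightest HSPA1A/HSPA1B and HSPA6 probe sets had the same order, from Jeko-1/R at the bottom through Raji and Jeko-1 to Raji/R. For HSPA6 the 2 lowest arrays, 127 in Jeko-1/R and 160 in Raji, were 0.34 apart on the log2 scale, which lies within the spread between probe sets in the Raji pair. The brightest probe sets of HSPB1, HSPH1, BAG3, HSP90AA1, HSPA8 and HSPD1 ordered the arrays by cell line instead. Both Jeko-1 arrays lay on one side of both Raji arrays.

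Of 5 listed regulators of the response only 2 were measured, HSF1 and HSBP1, and neither passed 2-fold. HSF2 had no probe set of its own. HSF1, the master factor, read 101 in Jeko-1/R and 164 in Jeko-1, and 724 in Raji/R and 375 in Raji. Its log2 ratios of -0.69 and 0.95 had the signs of HSPA6 and missed 2-fold. In both Jeko-1 lines its signal was low, under the alternative floor of 367. Whether HSF1 plays a part in the chaperone differences was not tested. HSBP1, a small protein that binds HSF1 trimers, gave 0.09 and 0.28, and HSF4 and HSF5 were under the floor everywhere. Of 21 other genes listed as heat shock targets, 15 were measured in each pair and 0 passed 2-fold in either. Their medians were -0.13 for Jeko-1/R and 0.02 for Raji/R. The brightest of them were the polyubiquitin gene UBB (-0.13 and 0.20) and the HSP90 cochaperone PTGES3 (-0.20 and -0.19). HSPE1, the mitochondrial partner of HSPD1, gave -0.23 and 0.01. IER5, an HSF1-linked early response gene, gave -0.55 for Jeko-1/R and 0.02 for Raji/R, and DEDD2 gave -0.17 and 0.85.

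The other chaperone families had medians near 0. The list of other cytosolic HSP70, HSP110 and HSP90 genes had medians of -0.10 and 0.17, with HSP90AB1, the constitutive HSP90, at -0.27 and 0.32. The list also holds HSPA13, a microsomal and not a cytosolic HSP70, whose own value of 0.17 is the Raji/R median. HSPA12B was at least 2.06-fold higher in Raji/R, at a signal of 160. Among 22 HSP40 genes the medians were -0.005 and -0.26. In Raji/R DNAJB13, a ciliary member, was at least 3.53-fold higher, while its other probe set gave -0.96, and DNAJC27 had a log2 ratio of -1.28. Of 13 cochaperones of HSP70 and HSP90, HSPBP1, a nucleotide exchange factor, was at least 3.95-fold lower in Raji/R, and the medians were -0.10 and -0.13. The cytosolic chaperonin TRiC had medians of -0.15 and -0.20 over 7 measured subunits, with CCT4 at -0.16 and -0.02 and CCT7 at -0.18 and 0.13. The list of mitochondrial chaperones, which also holds proteases, had medians of -0.06 and -0.04 over 11 genes. The protease subunit AFG3L2 gave -0.09 and -0.24, and the chaperone HSPA9 gave -0.08 and -0.37. Chaperones of the endoplasmic reticulum had medians of 0.05 and 0.10 over 15 genes, and only DNAJC10, a reductase, passed 2-fold (-1.25 in Raji/R, with -1.15 to 0.79 from its other probe sets). Of the other small heat shock proteins, 0 were above the floor in the Jeko-1 pair and only HSPB6 was in the Raji pair (-0.14).

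Metal and oxidant stress genes, which often accompany a heat shock response, showed no 2-fold change in opposite directions. In Jeko-1/R 4 of 10 measured were lower by 2-fold or more, all of them metallothioneins, which bind zinc and copper. MT1H gave -1.73, MT1G -1.16 and MT1X -1.11, and MT1E lay at the 2-fold limit. In Raji/R these 4 gave -0.91, 0.04, -0.51 and 0.49, and the 1 gene that passed 2-fold was the heme oxygenase HMOX1, at least 2.30-fold higher at a signal of 178. Metallothionein probe sets can share sequence, so single genes of that family are uncertain.

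**Figure D4:**
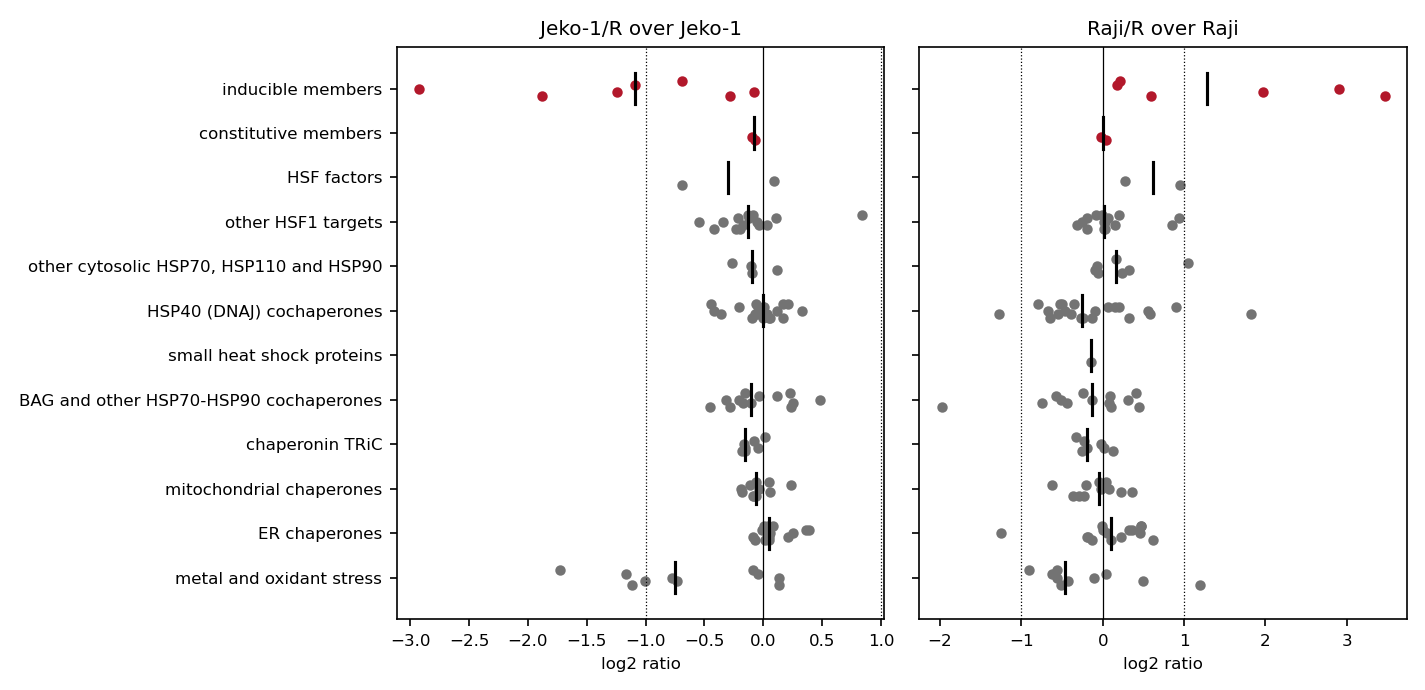
Log2 ratio of each measured gene (points, horizontal axis) in 12 gene groups (rows) for Jeko-1/R over Jeko-1 and Raji/R over Raji. Red points are the inducible and constitutive members, grey points other genes, short vertical bars the group medians and dotted lines 2-fold. Inducible members have medians of -1.09 and 1.28, which include HSPA6 and DNAJB1 chosen by these ratios. Without them the medians are -0.69 and 0.40. The first rests on the brightest HSPH1 probe set, and the second changes with the scaling.

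The genes most like HSPA6 and DNAJB1 were found by the distance between pairs of log2 ratios over the 2 comparisons, among 9213 genes above the floor on all 4 arrays. HSPA1A/HSPA1B lay 1.19 from HSPA6, and DNAJB1 lay 1.63 from it. The 5 nearest other genes were RGS1 (1.78), SLC29A4 (1.81), ANKRD37 (2.02), SNORA78 (2.06) and GDF15 (2.07). Nearest to DNAJB1 were RGS1 (0.18), ANKRD37 (0.40), SLC2A3 (0.53), SLC29A4 (0.58) and TM7SF2 (0.59). RGS1, a brake on G-protein signalling, read 4339 in Jeko-1/R and 10487 in Jeko-1, and 6179 in Raji/R and 1782 in Raji. Its other bright probe set gave log2 ratios of -1.5 and 1.36. SLC2A3, a glucose transporter, gave -1.08 and 1.46 on its brightest probe set, but -0.76 and 0.68, and -0.86 and 0.67, on its other probe sets, all under 2-fold. GDF15, a secreted stress protein, was near only for its ratio of 2.61 in Raji/R, since its ratio in Jeko-1/R was 0.01. SLC29A4 read 87.8 in Jeko-1/R, 141 in Jeko-1 and 96.4 in Raji, near the floor. Its other probe set gave -0.20 in Jeko-1/R and was under the floor in both Raji lines. SNORA78 lay near the floor too, at 79.3 in Jeko-1/R and 99.9 in Raji.

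Of 5 B-cell markers 4 had a probe set of their own, and all 4 were above the floor on the 4 arrays. The mantle cell markers CCND1 and SOX11 were above it in Jeko-1/R and Jeko-1 and under it in Raji/R and Raji. Of the germinal centre and Burkitt markers, BCL6 read 432 in Jeko-1/R and 392 in Jeko-1, and 14566 in Raji/R and 14398 in Raji. The other, MME, read 187 in Jeko-1/R and 201 in Jeko-1, and 113 in Raji/R and 223 in Raji, and so did not separate the lines. The B-cell factor PAX5 read 5628 in Raji/R and 13252 in Raji. Markers of T, NK, myeloid and epithelial or stromal cells with a probe set of their own numbered 17. Of these, 5 reached the floor in Jeko-1/R and 4 in Jeko-1, with summed signals of 902 and 1076. In Raji/R 11 reached it and 9 in Raji, with summed signals of 5485 and 4184. In Raji/R KRT18 was at least 4.92-fold, NCAM1 at least 2.61-fold and CD3D at least 2.33-fold higher than in Raji, and COL1A2 read 264 in Raji/R and 86.8 in Raji. A further probe set of NCAM1 gave a log2 ratio of 0.73 and of COL1A2 0.86, and their remaining ones were under the floor. NKG7 read 1749 in Raji/R and 883 in Raji. Other markers were lower in Raji/R, namely CD3G (-0.89), KLRD1 (-0.75), COL1A1 (-0.39), ITGAM (-0.17) and EPCAM (-0.12). The part of these markers in the chaperone differences was not tested.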

How the data were processed

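Total RNA was extracted with Trizol and 6 µg was labelled for Affymetrix U133 Plus 2.0 arrays, per the labels' protocols and the probe annotation. The deposited table holds a log2 signal per probe set and array, 54613 probe sets on 4 arrays. The submitters' processing notes name MAS5 without a version. It applies 1 scale factor per array and leaves signal-dependent differences between arrays in place. Arrays give no read depth, and their number limits the precision.

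Groups came from the labels. Probe sets were named by the platform annotation, with 1 symbol for 41091, several for 1801 and none for 11721. Values under the median of all values (log2 6.28) were set to that median. The probe set with the highest mean linear signal stood for a gene, and a pair was measured when at least 1 array reached the floor. A ratio with 1 side under the floor is a lower bound. Python 3.11.15, pandas 2.3.3 and statsmodels 0.14.6 were used, and the ratio and call steps were tested on simulated data. The 9 alternatives changed the floor, the scaling, the lowess adjustment (fraction 0.3) and the choice of probe set. For the comparison of the parental lines they were added after seeing the data.

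The members and gene lists were chosen with earlier results of these data known. Named genes are all members, every gene of the other lists past 2-fold in either subline, up to 2 of the brightest genes in lists with none, and the 5 nearest patterns to HSPA6 and to DNAJB1, searched among genes above the floor on all 4 arrays. HSPE1, IER5, DEDD2, HSP90AB1, HSPA1L, HSPA13, HSPB8, CRYAB, HSF4 and HSF5 were named after their values were seen. The same holds for NKG7, CD3G, KLRD1, COL1A1, ITGAM and EPCAM.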

Additional observations from a re-analysis of the deposited data

Results flagged for a closer look

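Several genes had ratios of opposite sign in the 2 lines, at least 2-fold in each on the brightest probe set. The difference of log2 ratios, Raji/R over Raji minus Jeko-1/R over Jeko-1, was 5.83 for HSPA1A/HSPA1B, 5.35 for HSPA6 and 3.22 for DNAJB1. Among the genes with the nearest patterns it was 3.07 for RGS1, 2.69 for ANKRD37 and 2.55 for SLC2A3, whose other measured probe sets stayed under 2-fold in both lines. With 1 array per group these differences were not tested. HSPA6, DNAJB1 and the nearest patterns were chosen for this pattern, so their differences are a description.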

How the results depend on the processing

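Under the 9 alternatives 0 member ratios past 2-fold turned direction, and HSPA6, DNAJB1 and HSPA1A/HSPA1B kept a negative ratio in Jeko-1/R and a positive ratio in Raji/R wherever they had a value. The 4 readouts lower in Jeko-1/R became 2 with the floor at the 75th percentile, where HSPA6 gave -0.35 and HSPB1 -0.97, and 2 of 5 measured without probe sets ending in x_at or s_at, where DNAJB1 had no value. The 7 readouts past 2-fold between Jeko-1 and Raji became 3 of 5 without those probe sets, where HSPB1, BAG3 and HSPA8 had no value and HSPH1 gave 0.88, and 5 of 9 with the floor at the 75th percentile, where HSPA6 gave 0.35 and HSPB1 0.97. In Raji/R the HSPA6 ratio ran from 2.27 to 3.47. Over all genes the count lower in Jeko-1/R ran from 16 to 257 and the count higher in Raji/R from 53 to 2404. The share of changed genes that were higher in Raji/R was 72.7%, against 53.6% with quantile normalization, 22.1% with arrays centred on their medians, 31.5% with the lowess adjustment and 38.1% with the higher floor. Centring moved the median of all genes in Raji/R to -0.31, against 0.08. The cause of these shifts was not tested. No paired analysis was possible because each group had 1 array and the labels give no replicate numbers. Signals near the floor, such as HSPA6 in Jeko-1/R and Raji, limit the size of their ratios.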
